A study of Homo sapiens with 18 samples.

Results

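The MYC, MAX and MXD network is a family of transcription factors that pair through a shared helix-loop-helix leucine zipper fold and compete for the same DNA. The network was followed here through 10 genes: MYC and MYCL, the partner MAX, the MAX-like partner MLX, the opposing factors MXD1, MXI1, MXD3, MXD4 and MNT, and the large MAX-binding protein MGA. They were taken by name from the deposited table, all 10 were found once, and they stand among 57500 measured genes. Poly-A RNA was sequenced from SNU2535, NCI-H3122 and NCI-H2228, 3 established lines of human lung cancer of the non-small cell type, all known for EML4-ALK fusions, and the labels give the genotype WT for every sample. Cells of each line received 3 µM TRI-611, which the series title describes as a molecular glue degrader of the receptor tyrosine kinase ALK, or the solvent DMSO, for 3 h, so that each line gave 3 TRI-611 libraries and 3 DMSO libraries and the series 18. The libraries of a group are not stated to be separate cultures. A p-value therefore reflects only how these libraries spread, and that spread may be technical. All values are TPM, a level corrected for gene length and scaled to the same sum in every library. Levels of different genes are set side by side on this scale, although its derivation is not given in the sources used here.

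As background, MYC and its relative MYCL bind DNA only as pairs with MAX, at the E-box sequence CACGTG, and drive genes of ribosome assembly, nucleotide synthesis and growth. MXD1, MXI1, MXD3, MXD4 and MNT use the same partner and the same site but recruit SIN3 and histone deacetylases, so they repress many of the genes that MYC activates. MYC RNA and protein are short-lived and are known to follow signalling from receptor tyrosine kinases through the ERK pathway. MLX pairs with MXD1, MXD4, MNT and the glucose-sensing Mondo factors, and MGA joins MAX to a Polycomb complex.

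Each library had 23766 to 25921 genes above 0 TPM, the depth of the libraries is unknown because TPM keeps no read totals, and mitochondrially encoded genes took 7.59% to 15.0% of TPM. Replicates correlated at r = 0.991 to 0.993 across genes, which are not independent replicates. The 6 epithelial markers looked up (EPCAM, KRT8, KRT18, KRT19, CDH1 and NKX2-1) all reached 1 TPM in every group. Their sums were lower with TRI-611 and did not overlap, at 6306 to 6587 TPM with TRI-611 and 6908 to 7171 TPM with DMSO in SNU2535, 6138 to 6698 TPM with TRI-611 and 7457 to 7747 TPM with DMSO in NCI-H3122, and 2365 to 2445 TPM with TRI-611 and 2608 to 2739 TPM with DMSO in NCI-H2228. Single markers moved both ways: the lung lineage factor NKX2-1 was called higher in each line (log2 change 0.31 in SNU2535, 1.05 in NCI-H3122, 0.75 in NCI-H2228), and the keratin gene KRT18 lower (-0.30, -0.49 and -0.20, with the call in NCI-H2228 lost with no filter and when any 1 of TRI-611 replicates 2 and 3 and DMSO replicate 2 was left out). The 9 markers of leukocytes, endothelium and fibroblasts summed to 158 to 182 TPM with TRI-611 and 147 to 155 TPM with DMSO in SNU2535, to 188 to 196 and 220 to 224 TPM in NCI-H3122, and to 367 to 378 and 377 to 400 TPM in NCI-H2228. DCN, PTPRC and CD3E were near 0, while the collagen gene COL1A1 and the proteoglycan gene LUM made up most of those sums. Their part in the results was not tested. The 10 genes of an ERK pathway output check, among them the feedback inhibitors DUSP6 and SPRY4, were called lower in 10 cases in SNU2535, 9 in NCI-H3122 and 9 in NCI-H2228, with none called higher. Of all tested genes, 18.1%, 13.4% and 6.40% were called lower in SNU2535, NCI-H3122 and NCI-H2228. This list, too, was chosen with earlier results of these data known.

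The first question was which network genes differed after 3 h of TRI-611 in each line. MYC was lower and MLX was lower in all 3 lines, MXI1, MXD3 and MNT were higher in all 3, and MAX and MGA passed the test in none. In SNU2535, 7 of 10 network genes were called, 5 higher and 2 lower, where 28.7% of all 16252 tested genes were called, 10.7% higher and 18.1% lower. In NCI-H3122, 8 of 10 were called, 4 higher and 4 lower, against 34.1% of 15311 genes, 20.6% higher and 13.4% lower. In NCI-H2228, 7 of the 9 network genes tested were called, 5 higher and 2 lower, against 11.2% of 16806 genes, 4.80% higher and 6.40% lower. MYCL was under the expression filter there, which asked for 1 TPM or more in at least 3 libraries. A call means an adjusted p under 0.05 from limma on log2(TPM + 1), with Benjamini-Hochberg adjustment over all tested genes. The TRI-611 and DMSO values of a gene did not overlap for 9, 9 and 8 of the 10 network genes in SNU2535, NCI-H3122 and NCI-H2228, where 43.9%, 48.1% and 31.4% of all tested genes did not overlap. In bulk RNA, fewer cells with a transcript and less of it per cell cannot be told apart, and this holds for each level below.

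MYC (ENSG00000136997, GRCh38 chromosome 8, 127735434 to 127741434, plus strand) was lower after TRI-611 in every line. In SNU2535 it measured 65.3, 68.0 and 69.4 TPM with TRI-611, against 188, 207 and 214 TPM with DMSO. In NCI-H3122 it measured 273, 264 and 275 TPM with TRI-611, against 421, 416 and 427 TPM with DMSO. In NCI-H2228 it measured 56.9, 56.7 and 58.8 TPM with TRI-611, against 118, 115 and 126 TPM with DMSO. Within each line, every TRI-611 library lay below every DMSO library, and the replicates of a group were close to each other. The mean with TRI-611 was 33.3% of the DMSO mean in SNU2535, 64.3% in NCI-H3122 and 48.1% in NCI-H2228. On the log2(TPM + 1) scale MYC fell by 1.57 ± 0.05 in SNU2535 (SE, adjusted p = 1.89e-06), by 0.64 ± 0.03 in NCI-H3122 (adjusted p = 8.37e-06) and by 1.04 ± 0.04 in NCI-H2228 (adjusted p = 1.01e-05). By the size of its change MYC ranked 85 of 16252 tested genes in SNU2535, 1291 of 15311 in NCI-H3122 and 138 of 16806 in NCI-H2228.

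The fall of MYC differed between the lines in each of the 3 pairs tested. The log2 change in SNU2535 minus that in NCI-H3122 was -0.94 ± 0.06 (SE, adjusted p = 1.53e-06), and minus that in NCI-H2228 it was -0.53 ± 0.07 (adjusted p = 0.000418). The change in NCI-H3122 minus that in NCI-H2228 was 0.41 ± 0.05 (adjusted p = 0.000196). Measured in TPM rather than as a ratio the order was another: the mean fell by 135 TPM in SNU2535, by 150 TPM in NCI-H3122 and by 62.1 TPM in NCI-H2228. Of the 6 groups, NCI-H2228 with TRI-611 had the lowest mean MYC level (57.5 TPM), followed by SNU2535 with TRI-611 (67.6 TPM), NCI-H2228 with DMSO (120 TPM), SNU2535 with DMSO (203 TPM), NCI-H3122 with TRI-611 (271 TPM) and NCI-H3122 with DMSO (421 TPM). No neighbours in that order overlapped, so the MYC level of NCI-H3122 with TRI-611 lay above the DMSO levels of both other lines.

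**Figure D1:**
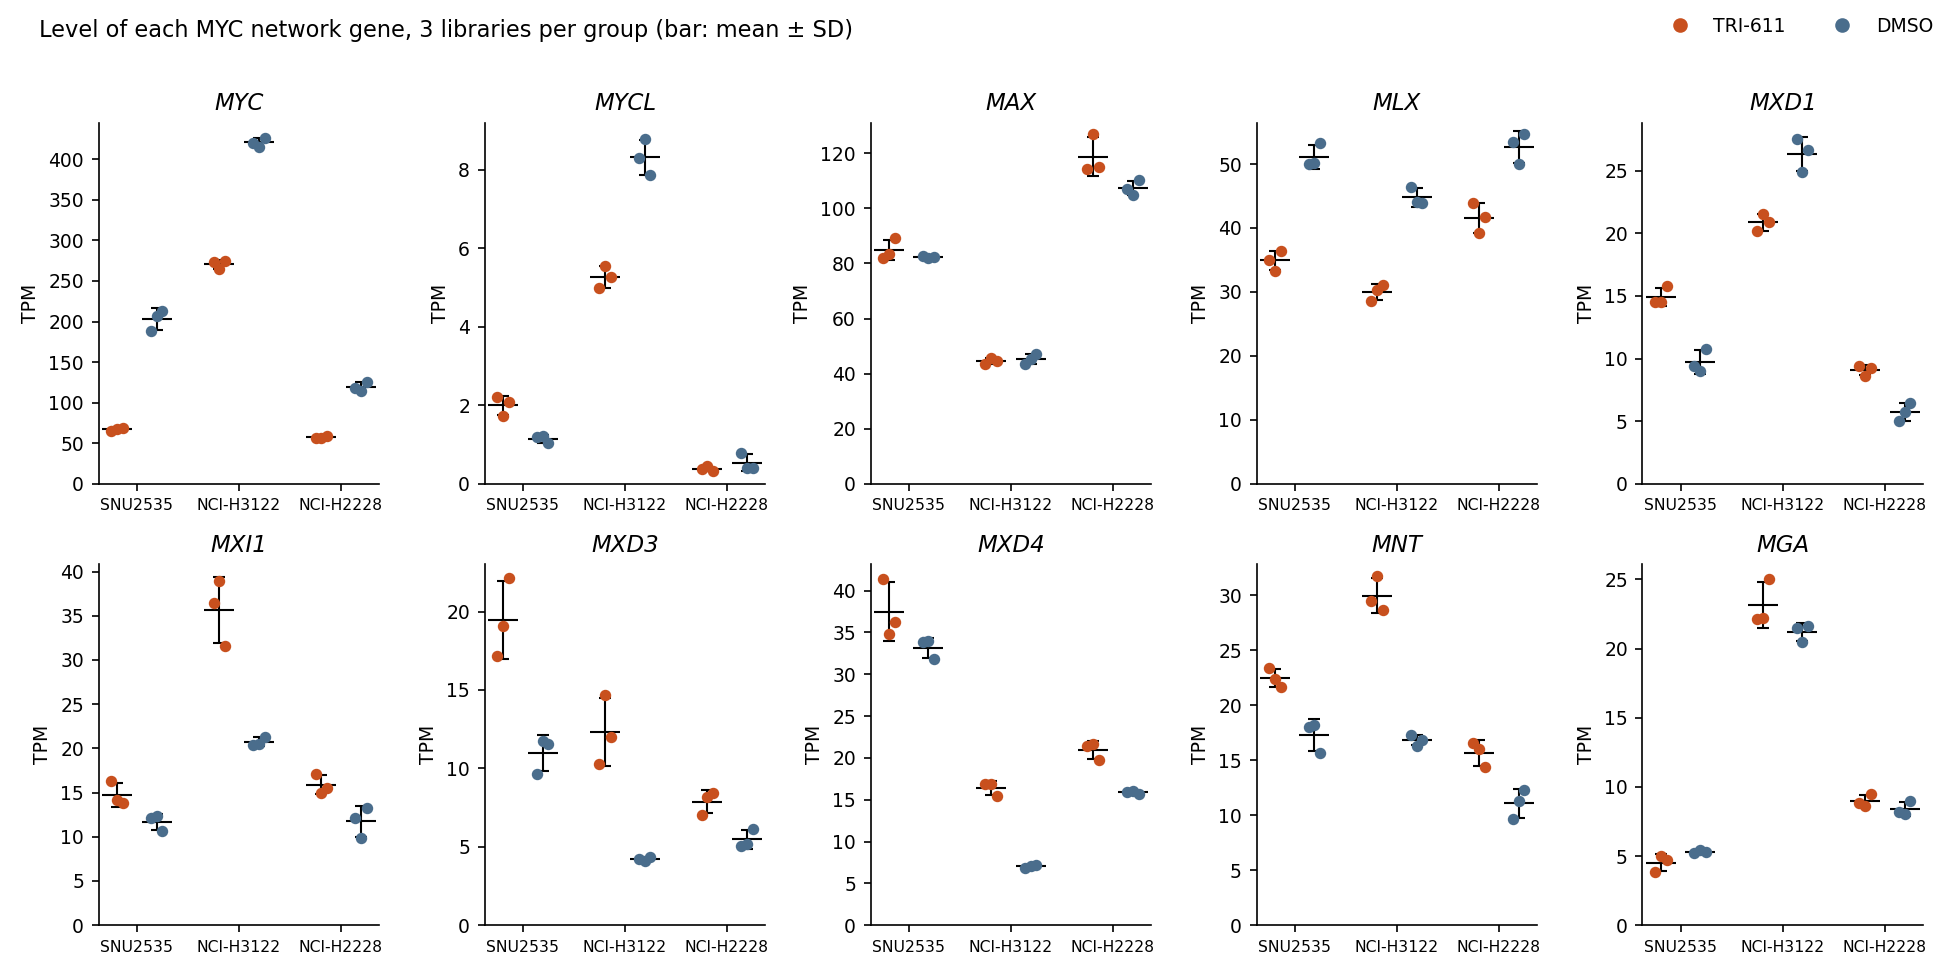
Level of each of the 10 network genes in all 18 libraries (TPM, linear axis from 0 for each gene), by line and treatment with TRI-611 left of DMSO; each point is a library and the bars give the mean ± SD of 3. MYC lies at 65.3 to 69.4 TPM with TRI-611 and 188 to 214 TPM with DMSO in SNU2535, and MAX shows no such gap in SNU2535 or NCI-H3122.

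MYCL (ENSG00000116990, chromosome 1, 39895426 to 39902256, minus strand), the MYC paralog first found amplified in small cell lung cancer, was far lower than MYC. Its levels in SNU2535 were 2.20, 1.74 and 2.08 TPM with TRI-611, against 1.19, 1.22 and 1.04 TPM with DMSO. Its levels in NCI-H3122 were 4.99, 5.55 and 5.27 TPM with TRI-611, against 8.30, 8.78 and 7.87 TPM with DMSO. In NCI-H2228 it stayed under 1 TPM, at 0.376, 0.456 and 0.336 TPM with TRI-611 against 0.783, 0.415 and 0.413 TPM with DMSO, and was not tested. MYCL therefore moved in opposite directions in the lines where it could be tested, with no overlap of the groups in either. It was higher by 0.48 ± 0.14 (log2, SE, adjusted p = 0.0397) in SNU2535 and fell by 0.57 ± 0.08 (adjusted p = 0.000937) in NCI-H3122, and the change in SNU2535 minus that in NCI-H3122 was 1.05 ± 0.13 (adjusted p = 0.000181). The SNU2535 call was lost with the replicate block (adjusted p = 0.0812) and with no filter (0.0529). It was also lost without DMSO replicate 1 (0.0755), 2 (0.0662) or 3 (0.0989) and without TRI-611 replicate 1 (0.108) or 3 (0.0990), while the NCI-H3122 call and the difference between the lines were kept under every alternative run.

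MAX (ENSG00000125952, chromosome 14, 65006174 to 65102695, minus strand), the partner shared by both sides of the network, was called in no line. In SNU2535 it measured 81.9, 83.6 and 89.1 TPM with TRI-611, against 82.5, 81.9 and 82.2 TPM with DMSO. In NCI-H3122 it measured 43.4, 45.6 and 44.7 TPM with TRI-611, against 43.3, 45.2 and 47.0 TPM with DMSO. In NCI-H2228 it measured 114, 127 and 115 TPM with TRI-611, against 107, 105 and 110 TPM with DMSO. The groups overlapped in SNU2535 and NCI-H3122 and lay apart in NCI-H2228. The log2 change was 0.04 in SNU2535 (95% interval -0.05 to 0.14, adjusted p = 0.462), -0.02 in NCI-H3122 (-0.12 to 0.09, adjusted p = 0.782) and 0.14 in NCI-H2228 (0.03 to 0.25, adjusted p = 0.102). In NCI-H2228 MAX was called in a fit of all 18 libraries (adjusted p = 0.0384, with a range of 0.0384 to 0.249 over the alternatives).

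MLX (ENSG00000108788, chromosome 17, 42567068 to 42573239, plus strand) takes the place of MAX as partner of the Mondo factors MLXIP and MLXIPL. SNU2535 libraries held 35.0, 33.3 and 36.4 TPM with TRI-611, against 50.0, 50.1 and 53.3 TPM with DMSO. NCI-H3122 libraries held 28.6, 30.3 and 31.2 TPM with TRI-611, against 46.5, 44.0 and 43.9 TPM with DMSO. NCI-H2228 libraries held 43.9, 39.2 and 41.7 TPM with TRI-611, against 53.4, 49.9 and 54.7 TPM with DMSO. Every TRI-611 library lay below every DMSO library of its line. MLX fell by 0.54 ± 0.05 (log2, SE, adjusted p = 0.000164) in SNU2535, by 0.56 ± 0.05 (adjusted p = 0.000115) in NCI-H3122 and by 0.33 ± 0.06 (adjusted p = 0.00705) in NCI-H2228, and each call was kept under all 15 alternatives of its line. The difference between NCI-H3122 and NCI-H2228 was -0.23 (adjusted p = 0.0593) and passed the test in 5 of 21 alternatives, with an adjusted p of 0.0104 to 0.140. Of the exon bases of MLX, 18.1% are shared with PSMC3IP on the other strand, and the strand setting of the counting is not given in the sources used here, so reads of the pair cannot be told apart there. PSMC3IP averaged 7.85 TPM with TRI-611 and 10.8 TPM with DMSO in SNU2535, 11.0 and 10.3 TPM in NCI-H3122, and 11.2 and 9.75 TPM in NCI-H2228.

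RefSeq promoter windows of 300 bases (GRCh38.p14, 250 before to 50 after a start site) were matched for 9 of the 10 network genes, in 14 windows. The E-box CACGTG, searched on both strands and palindromic, lies in the windows of MXD4, MNT and MLX, and in 7.26% of 35116 promoter windows of all genes. The forkhead motif GTAAACA, also searched on both strands, lies in 2 windows of MXI1 and in 3.42% of all windows. These stretches are shown because MXD4, MNT, MLX and MXI1 carry the site of the network itself or of forkhead factors, which are known to act on MXI1. Each is written 5′ to 3′ on the strand of the gene, without annotated exon bases, with the motif in capitals. In MXD4 the motif begins 238 bases before the start, in MNT 193, in MLX 50 and in MXI1 151, where it reads as its reverse complement. A match describes the letters only.
MXD4, chr4:2262295-2262359, minus strand: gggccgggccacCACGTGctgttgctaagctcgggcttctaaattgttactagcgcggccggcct
MNT, chr17:2401119-2401310, minus strand: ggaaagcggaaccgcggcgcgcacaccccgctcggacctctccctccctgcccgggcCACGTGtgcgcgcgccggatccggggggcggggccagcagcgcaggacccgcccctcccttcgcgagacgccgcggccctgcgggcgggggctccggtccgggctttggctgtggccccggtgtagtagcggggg
MLX, chr17:42566850-42567067, plus strand: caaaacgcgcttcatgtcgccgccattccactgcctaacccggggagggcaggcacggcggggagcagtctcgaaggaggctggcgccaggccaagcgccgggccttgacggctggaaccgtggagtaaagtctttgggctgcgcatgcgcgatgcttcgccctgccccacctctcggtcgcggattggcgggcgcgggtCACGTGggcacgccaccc
MXI1, chr10:110209981-110210230, plus strand: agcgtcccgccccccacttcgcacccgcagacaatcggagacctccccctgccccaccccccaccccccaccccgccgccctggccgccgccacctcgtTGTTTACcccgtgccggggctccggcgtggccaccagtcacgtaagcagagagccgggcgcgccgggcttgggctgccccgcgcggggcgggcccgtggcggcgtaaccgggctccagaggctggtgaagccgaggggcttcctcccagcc

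Among the opposing factors, MXI1 (ENSG00000119950, chromosome 10, 110207605 to 110287365, plus strand), a MAX partner that recruits SIN3 and is known to limit MYC action, was higher in all 3 lines. Levels in SNU2535 were 16.3, 14.2 and 13.8 TPM with TRI-611, against 12.1, 12.3 and 10.7 TPM with DMSO. Levels in NCI-H3122 were 36.5, 38.9 and 31.6 TPM with TRI-611, against 20.3, 20.5 and 21.3 TPM with DMSO. Levels in NCI-H2228 were 17.1, 15.0 and 15.6 TPM with TRI-611, against 12.1, 9.87 and 13.2 TPM with DMSO. The groups did not overlap in any line, and the gap was widest in NCI-H3122. The log2 change was 0.31 ± 0.08 (SE, adjusted p = 0.0268) in SNU2535, 0.75 ± 0.07 (adjusted p = 0.000239) in NCI-H3122 and 0.41 ± 0.10 (adjusted p = 0.0370) in NCI-H2228. The SNU2535 call was lost with no filter (adjusted p = 0.0742), without DMSO replicate 3 (0.0819) and without TRI-611 replicate 1 (0.0670). The NCI-H2228 call was lost with no filter (0.121), without DMSO replicate 1 (0.0783) or 2 (0.0768) and without TRI-611 replicate 1 (0.115), 2 (0.0616) or 3 (0.0860).

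MXD3 (ENSG00000213347, chromosome 5, 177301461 to 177312757, minus strand), the family member linked to proliferating cells, had the largest log2 rise of the network, in NCI-H3122, although MXI1, MNT and MXD4 rose by more TPM there (14.9, 13.1 and 9.37 against 8.10). There it measured 10.3, 14.7 and 12.0 TPM with TRI-611, against 4.20, 4.11 and 4.34 TPM with DMSO. In SNU2535 it measured 17.2, 19.1 and 22.1 TPM with TRI-611, against 9.63, 11.7 and 11.6 TPM with DMSO, and in NCI-H2228 it measured 7.02, 8.20 and 8.40 TPM with TRI-611, against 5.07, 5.18 and 6.15 TPM with DMSO. The groups were apart in all 3 lines, and the TRI-611 libraries of NCI-H3122 and SNU2535 spread more than the others. The log2 change was 0.77 ± 0.11 (SE, adjusted p = 0.00134) in SNU2535, 1.34 ± 0.12 (adjusted p = 0.000122) in NCI-H3122 and 0.46 ± 0.10 (adjusted p = 0.0243) in NCI-H2228. The NCI-H2228 call was lost with no filter (0.0746), without DMSO replicate 1 (0.0791) or 2 (0.0828) and without TRI-611 replicate 2 (0.0756) or 3 (0.0812). MXD3 shares 22.5% of its exon bases with PRELID1 on the other strand and 18.0% with RAB24 on its own strand, so its level is uncertain. PRELID1 was far more abundant, and its means with TRI-611 were the lower ones: it averaged 233 TPM with TRI-611 and 267 TPM with DMSO in SNU2535, 305 and 361 TPM in NCI-H3122, and 305 and 321 TPM in NCI-H2228. RAB24 averaged 9.97 TPM with TRI-611 and 10.6 TPM with DMSO in SNU2535, 7.39 and 7.11 TPM in NCI-H3122, and 14.5 and 14.7 TPM in NCI-H2228.

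MXD4 (ENSG00000123933, chromosome 4, 2247432 to 2262294, minus strand), a repressor linked to differentiated and resting cells, stood out in NCI-H3122. It measured 16.9, 16.9 and 15.5 TPM with TRI-611 there, against 6.87, 7.13 and 7.17 TPM with DMSO. In SNU2535 it measured 41.4, 34.8 and 36.2 TPM with TRI-611, against 33.8, 33.9 and 31.8 TPM with DMSO, and in NCI-H2228 it measured 21.5, 21.7 and 19.8 TPM with TRI-611, against 16.0, 16.0 and 15.7 TPM with DMSO. All TRI-611 libraries lay above the DMSO libraries of their line, by the least in SNU2535. The log2 change was 0.17 ± 0.07 (SE, adjusted p = 0.112) in SNU2535, 1.11 ± 0.06 (adjusted p = 1.39e-05) in NCI-H3122 and 0.38 ± 0.06 (adjusted p = 0.00401) in NCI-H2228. In SNU2535 it passed the test after quantile normalization (adjusted p = 0.0459) and in the fit of all 18 libraries (0.0405).

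MNT (ENSG00000070444, chromosome 17, 2384060 to 2401118, minus strand), the most widely expressed of the MAX-binding repressors, was higher in all 3 lines. MNT in SNU2535 was at 23.3, 22.4 and 21.7 TPM with TRI-611, against 18.1, 18.2 and 15.6 TPM with DMSO. MNT in NCI-H3122 was at 29.5, 31.7 and 28.6 TPM with TRI-611, against 17.3, 16.3 and 16.9 TPM with DMSO. MNT in NCI-H2228 was at 16.6, 16.0 and 14.4 TPM with TRI-611, against 9.64, 11.3 and 12.3 TPM with DMSO. No TRI-611 library overlapped with the DMSO libraries of its line. The log2 change was 0.36 ± 0.07 (SE, adjusted p = 0.00614) in SNU2535, 0.80 ± 0.05 (adjusted p = 3.67e-05) in NCI-H3122 and 0.47 ± 0.09 (adjusted p = 0.0158) in NCI-H2228. The NCI-H2228 call was lost with the replicate block (adjusted p = 0.0505), with no filter (0.0640) and without TRI-611 replicate 1 (0.0575) or 2 (0.0508). An antisense gene that shares 12.2% of the exon bases of MNT was at 0 TPM in every group.

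MXD1 (ENSG00000059728, chromosome 2, 69897688 to 69942945, plus strand), the founding member of the MXD family and a gene induced in differentiation, was the opposing factor whose direction depended on the line. SNU2535 cells had 14.5, 14.5 and 15.8 TPM with TRI-611, against 9.40, 8.98 and 10.8 TPM with DMSO. NCI-H3122 cells had 20.2, 21.6 and 20.9 TPM with TRI-611, against 27.5, 24.9 and 26.6 TPM with DMSO. NCI-H2228 cells had 9.40, 8.63 and 9.25 TPM with TRI-611, against 5.04, 5.71 and 6.47 TPM with DMSO. The groups lay apart in each line, with TRI-611 above DMSO in SNU2535 and NCI-H2228 and below it in NCI-H3122. It was higher by 0.57 ± 0.08 (log2, SE, adjusted p = 0.00124) in SNU2535 and by 0.59 ± 0.10 (adjusted p = 0.00602) in NCI-H2228, and fell by 0.32 ± 0.05 (adjusted p = 0.00308) in NCI-H3122. The log2 change in SNU2535 minus that in NCI-H3122 was 0.89 ± 0.09 (adjusted p = 5.39e-05), and the change in NCI-H3122 minus that in NCI-H2228 was -0.91 ± 0.11 (adjusted p = 9.19e-05). Between SNU2535 and NCI-H2228 the difference was -0.01 (95% interval -0.28 to 0.25, adjusted p = 0.963). MXD1 shares 3.73% of its exon bases with SNRNP27 on its own strand. SNRNP27 averaged 28.5 TPM with TRI-611 and 32.0 TPM with DMSO in SNU2535. Its means were 38.6 and 42.9 TPM in NCI-H3122, and 53.0 and 58.7 TPM in NCI-H2228. The part of SNRNP27 in the MXD1 level was not tested.

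MGA (ENSG00000174197, chromosome 15, 41621224 to 41773081, plus strand), which binds MAX and belongs to a Polycomb repressor complex, was not called in any line. For SNU2535 the levels were 3.84, 4.99 and 4.73 TPM with TRI-611, against 5.21, 5.41 and 5.29 TPM with DMSO. For NCI-H3122 the levels were 22.1, 22.2 and 25.0 TPM with TRI-611, against 21.5, 20.4 and 21.7 TPM with DMSO. For NCI-H2228 the levels were 8.87, 8.58 and 9.47 TPM with TRI-611, against 8.18, 8.06 and 8.94 TPM with DMSO. The groups overlapped in NCI-H2228 only. The log2 change was -0.20 in SNU2535 (95% interval -0.44 to 0.04, adjusted p = 0.199), 0.12 in NCI-H3122 (-0.02 to 0.26, adjusted p = 0.179) and 0.09 in NCI-H2228 (-0.09 to 0.26, adjusted p = 0.531).

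**Figure D2:**
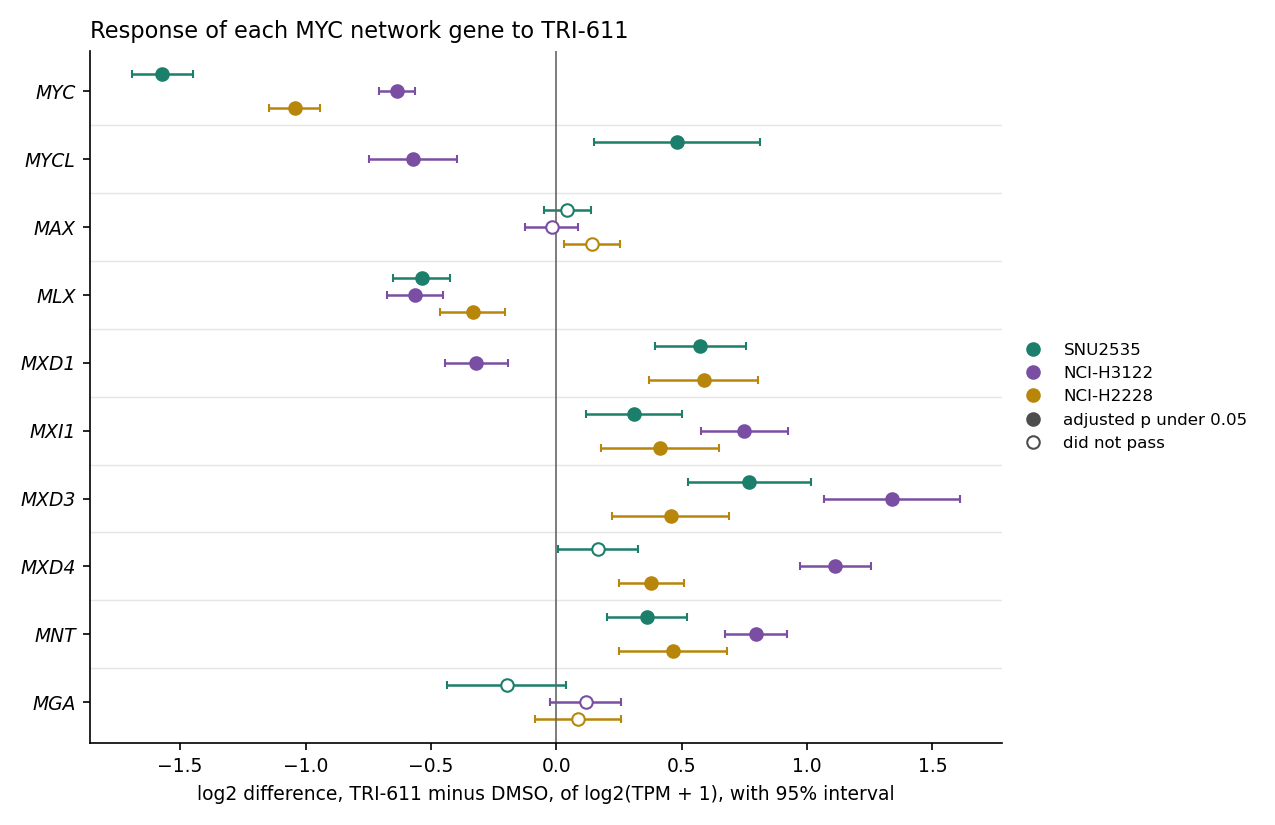
Log2 change, TRI-611 minus DMSO, of each network gene in the 3 lines on the log2(TPM + 1) scale; points are limma estimates, bars 95% intervals, and filled points were called at an adjusted p under 0.05. MYC lies at -1.57, -0.64 and -1.04 in SNU2535, NCI-H3122 and NCI-H2228, while MXD1 and MYCL lie on both sides of 0.

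Further members differed in response between lines. Between SNU2535 and NCI-H3122, 7 of the 10 network genes were called, against 20.1% of 13788 tested genes. Apart from MYC, MYCL and MXD1, these were MXD4 with a difference of -0.95 ± 0.09 (SE, adjusted p = 2.45e-05), MNT with -0.44 ± 0.09 (adjusted p = 0.00418), MXI1 with -0.44 ± 0.12 (adjusted p = 0.0183) and MXD3 with -0.57 ± 0.17 (adjusted p = 0.0302), all with the smaller change in SNU2535. The median difference of all tested genes was -0.09 in this pair and moved by 0.12 under median-ratio scaling. Relative to that median the differences were -0.84 for MYC, 1.15 for MYCL, 0.99 for MXD1, -0.85 for MXD4, -0.34 for MNT, -0.35 for MXI1 and -0.48 for MXD3. The MXI1 call was lost under median-ratio scaling (adjusted p = 0.0938), quantile normalization (0.0968) and no filter (0.0613), and the MXD3 call held in 8 of 21 alternatives. MXD3 lost it with a pseudocount of 5 (0.137), no filter (0.0973), median-ratio scaling (0.0531) and quantile normalization (0.141). The MXD3 call was also lost without SNU2535 DMSO replicate 2 (0.0698) or 3 (0.0680) and without SNU2535 TRI-611 replicate 1 (0.0739) or 2 (0.0558). The same held without NCI-H3122 DMSO replicate 1 (0.0538), 2 (0.0667) or 3 (0.0506), and without NCI-H3122 TRI-611 replicate 2 (0.0634) or 3 (0.0510).

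Between SNU2535 and NCI-H2228, MYC alone was called of 9 network genes tested, against 10.6% of 14640 genes. MXD4 was called as well without SNU2535 TRI-611 replicate 1 (difference -0.28, adjusted p = 0.0368, against -0.21 and 0.154 with all libraries). Between NCI-H3122 and NCI-H2228, 4 of 9 were called, against 14.3% of 13878 genes: MYC and MXD1 as above, MXD3 with 0.88 ± 0.16 (SE, adjusted p = 0.00241) and MXD4 with 0.73 ± 0.08 (adjusted p = 4.44e-05). MXD3 and MXD4 thus rose more in NCI-H3122 than in NCI-H2228. The comparisons of line pairs share libraries, so they are not independent of each other.

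To set both sides of the network against each other, MYC was divided by the sum of MXD1, MXI1, MXD3, MXD4 and MNT in each library, as a description without a test. The ratio was 0.620 ± 0.0365 with TRI-611 and 2.45 ± 0.197 with DMSO in SNU2535 (SD, n = 3 each). It was 2.36 ± 0.201 with TRI-611 and 5.60 ± 0.0905 with DMSO in NCI-H3122, and 0.828 ± 0.0398 with TRI-611 and 2.40 ± 0.0705 with DMSO in NCI-H2228 (SD, n = 3 each). MYC RNA was therefore below the summed opposing RNAs with TRI-611 in SNU2535 and NCI-H2228, and above them with TRI-611 in NCI-H3122 and with DMSO everywhere. The opposing sum with TRI-611 was 1.32, 1.53 and 1.39 times that with DMSO in SNU2535, NCI-H3122 and NCI-H2228. That sum averaged 109 TPM with TRI-611 and 82.9 TPM with DMSO in SNU2535, 115 TPM and 75.2 TPM in NCI-H3122, and 69.5 TPM and 49.9 TPM in NCI-H2228. The DMSO ratio was 3.95, 2.38 and 2.90 times the TRI-611 ratio in SNU2535, NCI-H3122 and NCI-H2228. As ratios, NCI-H3122 had the largest change of the opposing sum and the smallest of MYC, while in TPM its fall of MYC was the largest. MAX divided by the summed RNA of its partners (MYC, MYCL, the 5 opposing factors and MGA) was 0.463 with TRI-611 against 0.282 with DMSO in SNU2535, 0.108 against 0.0860 in NCI-H3122, and 0.871 against 0.603 in NCI-H2228. Summed partner RNA thus exceeded MAX RNA in every group. These ratios set different genes side by side, while the derivation of TPM is not given and the level of MXD3, part of both sums, is uncertain. RNA levels do not give protein levels.

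**Figure D3:**
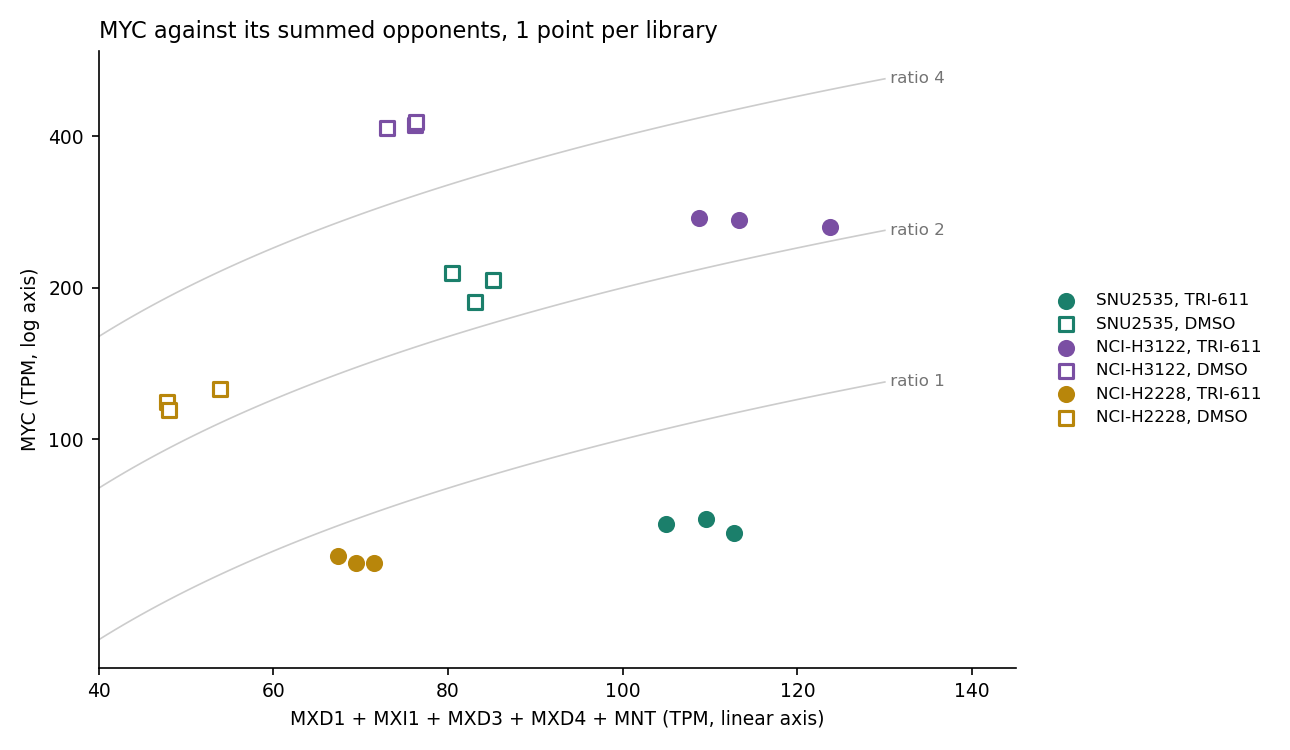
MYC (TPM) against the summed level of MXD1, MXI1, MXD3, MXD4 and MNT (TPM) in the 18 libraries, by line and treatment, with MYC on a log axis and the sum on a linear axis; the grey curves mark ratios of 1, 2 and 4. TRI-611 libraries of SNU2535 and NCI-H2228 lie under a ratio of 1 (mean ratios 0.620 and 0.828), and those of NCI-H3122 lie above it (2.36).

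The second question was how the network differed between the lines without the compound. Of the 10 network genes, 9 differed between SNU2535 and NCI-H3122, 8 between SNU2535 and NCI-H2228 and 10 between NCI-H3122 and NCI-H2228. With 76.1%, 75.0% and 79.3% of 18233 tested genes called in these pairs, such counts are close to those of all genes. NCI-H3122 had the highest DMSO level of MYC, MYCL, MXD1, MXI1 and MGA, and the lowest of MAX and MXD4, and as deposited also of MXD3 and MLX, whose order changes with the scaling. The highest line mean was 15.5 times the lowest for MYCL, at 8.32 TPM in NCI-H3122 over 0.537 TPM in NCI-H2228, which is under 1 TPM. On the log2(TPM + 1) scale that MYCL difference was 2.61, and it was 1.27 to 3.77 over the alternatives, which include other pseudocounts. The highest line mean was 4.70 times the lowest for MXD4 (SNU2535 over NCI-H3122), 4.59 times for MXD1, 4.00 times for MGA (NCI-H3122 over SNU2535) and 3.52 times for MYC (NCI-H3122 over NCI-H2228). MAX was 2.38 times higher in NCI-H2228 than in NCI-H3122, and MXD3 2.60 times higher in SNU2535 than in NCI-H3122. MXI1, MNT and MLX spread least, at 1.77, 1.56 and 1.18 times.

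The line differences rest in part on the scaling, because the median difference of all genes was 0.16 for SNU2535 minus NCI-H3122, -0.11 for SNU2535 minus NCI-H2228 and -0.25 for NCI-H3122 minus NCI-H2228. Those medians moved by -0.15, 0.08 and 0.24 under median-ratio scaling and by -0.24, 0.10 and 0.34 under quantile normalization. Relative to the median, SNU2535 minus NCI-H3122 was -1.21 for MYC, -2.28 for MYCL, 0.69 for MAX, -1.51 for MXD1, 1.93 for MXD4 and -1.98 for MGA. SNU2535 minus NCI-H2228 was 0.87 for MYC, -0.27 for MAX, 0.78 for MXD1 and 1.13 for MXD4 on that scale. The MLX level did not keep its direction: SNU2535 minus NCI-H3122 was 0.19 as deposited (adjusted p = 0.00420) but -0.01 under median-ratio scaling (0.840) and -0.03 under quantile normalization (0.459). NCI-H3122 minus NCI-H2228 was -0.23 for MLX as deposited (adjusted p = 0.00117) but 0.07 (0.137) and 0.05 (0.225) under these scalings. For MXD3 the same pair gave -0.31 as deposited (adjusted p = 0.0118), -0.06 under median-ratio scaling and 0.19 under quantile normalization (0.0552).

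Genes known to be induced by MYC, a list of 33 in ribosome assembly, nucleotide synthesis and growth, were lower in part. In SNU2535, 21 of the 32 tested were called lower and 0 higher. The list had a median log2 change of -0.32, against -0.02 for all tested genes. Among all tested genes of this line, lower calls made up 18.1%, higher calls 10.7%. In NCI-H3122, 22 of 31 were called lower and 2 higher, with a median of -0.19 against 0.05. The shares of all tested genes were 13.4% for lower calls, 20.6% for higher calls. In NCI-H2228, 18 of 31 were called lower and 0 higher, with a median of -0.17 against 0.01. With the replicate block, 14 of the list were called lower in this line. Of its tested genes as a whole, 6.40% had a lower call, 4.80% a higher one. The count of 2 higher in NCI-H3122 was 1 without DMSO replicate 3, and the count of 0 higher in SNU2535 was 1 without TRI-611 replicate 1. The ribosome assembly factor NOP16 was among the largest falls in each line, by 1.10 in SNU2535, 0.69 in NCI-H3122 and 0.55 in NCI-H2228. PPAN, which acts in large subunit assembly, fell by 1.05 in SNU2535 and 0.74 in NCI-H3122. PPAT, the first enzyme of purine synthesis, fell by 0.98 in SNU2535, and POLR1B, a subunit of RNA polymerase I, by 0.59 in NCI-H2228. CAD, the enzyme that starts pyrimidine synthesis, was called in the other direction in NCI-H3122, at 0.31 (adjusted p = 0.00305). All these values are log2 changes. This list and those that follow were chosen with earlier results of these data known, so their counts and medians are a description only.

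Genes known to be repressed by MYC, a list of 11 growth-limiting genes, moved both ways. In SNU2535, 3 of the 10 tested were called higher and 2 lower, in NCI-H3122 4 of 10 higher and 3 lower, and in NCI-H2228 4 of 9 higher and 1 lower. Of all tested genes, 10.7% were called higher and 18.1% lower in SNU2535, 20.6% higher and 13.4% lower in NCI-H3122, and 4.80% higher and 6.40% lower in NCI-H2228, so the 2 of 10 lower in SNU2535 are near the share of all genes. The list medians were 0.22, 0.19 and 0.32 in SNU2535, NCI-H3122 and NCI-H2228, against -0.02, 0.05 and 0.01 for all tested genes. The cyclin-like gene CCNG2 rose by 1.38, 1.11 and 1.45 (log2), and the cyclin-dependent kinase inhibitor CDKN1B by 0.93, 0.87 and 0.86, in SNU2535, NCI-H3122 and NCI-H2228. CDKN1C, another such inhibitor, rose by 1.61 in SNU2535 and 0.77 in NCI-H2228. CDKN1A, which encodes p21, fell by 0.28 in SNU2535 and 0.76 in NCI-H2228, and the matrix gene THBS1 fell by 0.85 in SNU2535 and 1.32 in NCI-H3122.

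Of 4 known targets of MLX and the Mondo factors, 3 were tested. SNU2535 had 1 called higher and 2 lower, NCI-H3122 1 higher and 1 lower, NCI-H2228 1 higher and 2 lower. Among all tested genes, higher calls made up 10.7% (SNU2535), 20.6% (NCI-H3122) or 4.80% (NCI-H2228). Lower calls made up 18.1%, 13.4% or 6.40%, with the lines in the same order. A list of 3 genes is too short to be read against these shares, so the counts describe single genes only. ARRDC4, an arrestin-like gene, fell in every line, by 0.78 in SNU2535, 0.73 in NCI-H3122 and 0.64 in NCI-H2228 (log2). KLF10, a zinc finger gene, fell by 0.83 in SNU2535 and by 0.50 in NCI-H2228, and its log2 change in NCI-H3122 was -0.17, which was not called (adjusted p = 0.0699). With median-ratio scaling or the fit of all 18 libraries, 2 of the list were called lower in NCI-H3122. TXNIP, the arrestin-like relative of ARRDC4, was called higher (0.32 in SNU2535, 0.18 in NCI-H3122 and 0.47 in NCI-H2228). The TXNIP call in NCI-H3122 was lost with no filter (adjusted p = 0.0530), under median-ratio scaling (0.0733), without DMSO replicate 2 (0.0551) or 3 (0.0742) and without TRI-611 replicate 2 (0.0591).

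Among genes that work with the network proteins, WDR5 and SIN3A moved in the same direction in each line. E2F6, FBXW7 and USP36 are given for SNU2535 and NCI-H3122 only. The genes named are a part of their lists, which also hold genes called the other way, as the counts below show. In NCI-H3122, 4 MYC co-activators were called higher. Of the genes of MYC protein turnover, 2 were called higher in SNU2535 and 5 in NCI-H3122. SIN3A was the only co-repressor called higher in SNU2535 and in NCI-H2228, where 6 and 2 were called lower. WDR5, a chromatin adaptor that binds MYC, fell by 0.50, 0.24 and 0.22 (log2) in SNU2535, NCI-H3122 and NCI-H2228. SIN3A, the scaffold that MXD proteins and MNT bind, was called higher by 0.45, 0.55 and 0.42. E2F6, a partner of MGA in its Polycomb complex, fell by 0.84 in SNU2535 and 0.28 in NCI-H3122. FBXW7, the ubiquitin ligase subunit that marks MYC for decay, fell by 0.50 in SNU2535 and 0.42 in NCI-H3122, and USP36, a nucleolar deubiquitinase that stabilises MYC, by 0.85 and 0.49 there.

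The counts of these lists are read against 10.7% of all tested genes called higher and 18.1% lower in SNU2535, 20.6% higher and 13.4% lower in NCI-H3122, and 4.80% higher and 6.40% lower in NCI-H2228, and several are near those shares. Of 12 co-activators of MYC, 0 were called higher and 6 lower in SNU2535, 4 higher and 2 lower in NCI-H3122, and 0 higher and 2 lower in NCI-H2228. Those lower in SNU2535 numbered 3 when either DMSO replicate 2 or the first TRI-611 library was left out, and 2 without TRI-611 replicate 3. In NCI-H3122, 2 were higher when any 1 of DMSO replicates 2 and 3 and TRI-611 replicates 1 and 3 was left out, and 1 was lower when any 1 of these or DMSO replicate 1 was left out, as well as under the block.

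Of 15 co-repressors of the MXD, MNT and MGA proteins, 1 was called higher and 6 lower in SNU2535, 2 higher and 5 lower in NCI-H3122, and 1 higher and 2 lower in NCI-H2228. Those lower in SNU2535 numbered 3 when either DMSO replicate 2 or the first TRI-611 library was left out. Those lower in NCI-H3122 numbered 2 under the block and when any 1 of DMSO replicates 1 and 3 and TRI-611 replicates 1 and 2 was left out, and 3 without TRI-611 replicate 3. In NCI-H2228, 1 was lower when any DMSO library or the first TRI-611 library was left out, and 0 without TRI-611 replicate 2 or 3, while 2 were higher without DMSO replicate 3.

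Of 14 genes of MYC protein turnover, 2 were called higher and 3 lower in SNU2535, 5 higher and 3 lower in NCI-H3122, and 1 higher and 1 lower in NCI-H2228. Only 1 was higher in SNU2535 when any DMSO library or the second TRI-611 library was left out. In NCI-H2228, 0 were higher without any single library other than TRI-611 replicate 2, and 0 were lower without any single library other than DMSO replicate 1. Of the genes of the MYC locus and MYC mRNA control, 0 were called higher and 4 lower of 8 tested in SNU2535, 2 higher and 1 lower of 8 in NCI-H3122, and 0 either way of 9 in NCI-H2228. Those lower in SNU2535 numbered 2 when any 1 of DMSO replicate 1 and TRI-611 replicates 1 and 2 was left out, and 1 when the third library of either group was. In NCI-H3122, 1 was higher under the block and without any single library other than DMSO replicate 1. There 0 were lower without DMSO replicate 1 or 2, and 2 without TRI-611 replicate 2, and in NCI-H2228 1 was lower without TRI-611 replicate 3.

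Of the 5 further E-box binding relatives, MLXIP was called in NCI-H3122 (0.42) and USF1 in NCI-H2228 (0.24), and none in SNU2535. USF1 lost its call with no filter (adjusted p = 0.0534), in the fit of all 18 libraries (0.0551) and without TRI-611 replicate 1 (0.0509) or 3 (0.0546), and 1 of the relatives was called lower in SNU2535 under the block, as also without TRI-611 replicate 3.

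**Figure D4:**
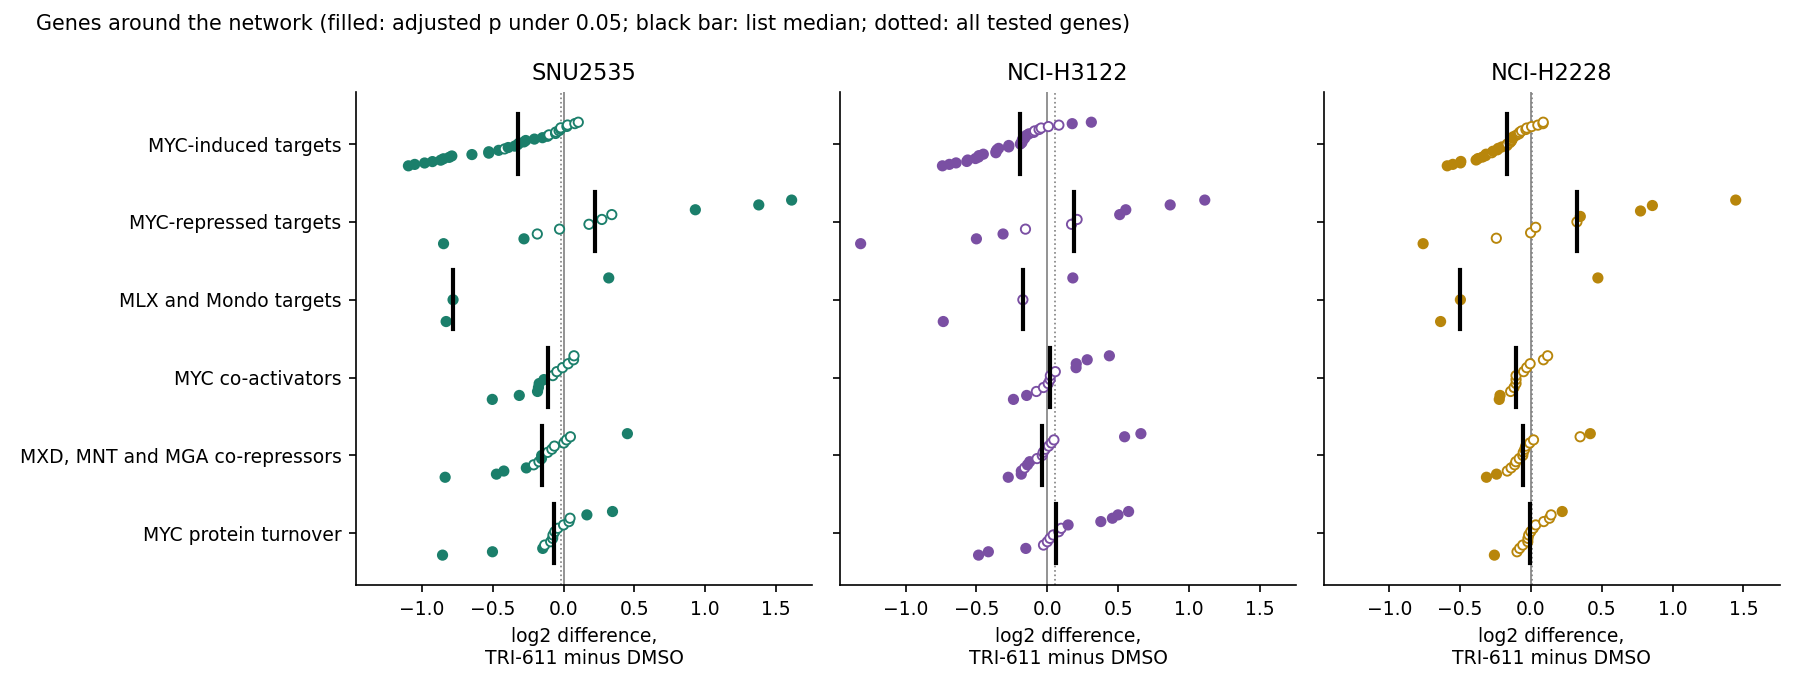
Log2 change, TRI-611 minus DMSO, of the genes in the lists around the network, by line, on the log2(TPM + 1) scale; each point is a tested gene, filled where called, the black bar is the list median and the dotted line the median of all tested genes. The medians of the MYC-induced list lie at -0.32, -0.19 and -0.17 in SNU2535, NCI-H3122 and NCI-H2228.

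Across all 18 libraries, the genes whose log2(TPM + 1) values were most like those of MYC, of 16791 genes, were RCHY1 (Pearson r = 0.985), INAFM2 (0.981), PDCD2L (0.980), PRDM13 (0.980) and BRIX1 (0.979). RCHY1 averaged 9.17 TPM with TRI-611 and 14.7 TPM with DMSO in SNU2535, 15.2 and 20.8 TPM in NCI-H3122, and 8.48 and 11.2 TPM in NCI-H2228. For MLX the nearest were F3 (r = 0.974), TNFRSF10A (0.966), PVR (0.965), MAFF (0.963) and CDC42EP2 (0.962). F3 averaged 90.4 TPM with TRI-611 and 316 TPM with DMSO in SNU2535, 59.8 and 213 TPM in NCI-H3122, and 180 and 303 TPM in NCI-H2228. Within the network, r with MYC was 0.78 for MYCL, 0.69 for MGA and -0.85 for MAX, and r with MLX was -0.87 for MNT and -0.76 for MXI1. These correlations are a description, since the libraries share 3 lines and 2 treatments.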

How the data were processed

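Poly-A RNA from 18 libraries (3 per line and treatment) was measured. The authors deposited TPM values for 57500 genes, which sum to 1000000 per library, so the depth is unknown. Per the submitters' processing notes, the tools were STAR 2.5.2b, fastp 0.23.1, Subread 1.5.2, featureCounts and DESeq2, and the build was GRCh38. The annotation, the strand setting, the handling of the kit's molecular identifiers and the derivation of TPM were not given in the sources used here. Coordinates and exon overlaps came from GENCODE release 29, in which 56898 IDs were found.

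Values were transformed to log2(TPM + 1), a scale that understates changes of low genes. Genes with 1 TPM or more in at least 3 libraries of a fit entered limma 3.58.1 under R 4.3.3 (moderated by empirical Bayes with trend and robust settings, two-sided, Benjamini-Hochberg over all tested genes, called under 0.05): the 6 libraries of each line, interaction contrasts over the 12 libraries of each pair of lines, and the 9 DMSO libraries. For the interaction contrasts, a gene had to pass this filter in each line of the pair. Steps were tested on simulated data. The network genes and the lists around them were chosen with earlier results of these data known. All 10 network genes are named, and from each list up to 3 called genes per line and direction with the largest changes, some of which are left out.

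Alternatives were pseudocounts of 0.1 and 5, no filter, a filter in every library, median-ratio scaling, quantile normalization, TPM without mitochondrially encoded genes, a fit of all 18 libraries, a replicate block and leaving out each library. The labels give a batch, 1 to 3, equal to the replicate number, which pairs the samples. Deviations of same-numbered samples correlated, across genes, at r = -0.0228, 0.0437 and 0.00966 for SNU2535. They did so at -0.0865, -0.0290 and 0.0152 for NCI-H3122 and at 0.101, 0.00343 and 0.0830 for NCI-H2228. With 1 library per group in a batch, a test within a batch was not possible. TRI-611 minus DMSO within a batch had the same sign in all 3 batches for 9 of the 10 network genes in each line. Those 10 include MYCL, which was not tested in NCI-H2228. Groups that do not overlap give the same sign in every batch, and 43.9%, 48.1% and 31.4% of all tested genes in SNU2535, NCI-H3122 and NCI-H2228 did not overlap. The same-sign share of all tested genes was not computed, so this count is a description only.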

Additional observations from a re-analysis of the deposited data

Results flagged for a closer look

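The following differences in response between lines passed the test of the difference itself (limma interaction contrast, log2 change in the first line minus that in the second line, SE in the report). Between SNU2535 and NCI-H3122 the difference was -0.94 for MYC, 1.05 for MYCL, 0.89 for MXD1, -0.95 for MXD4, -0.44 for MNT (-0.435), -0.44 for MXI1 (-0.440) and -0.57 for MXD3. MYCL and MXD1 moved in opposite directions in these lines, as their values by library in the report show. Between SNU2535 and NCI-H2228 it was -0.53 for MYC. Between NCI-H3122 and NCI-H2228 it was 0.41 for MYC, -0.91 for MXD1, 0.88 for MXD3 and 0.73 for MXD4.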

How the results depend on the processing

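Of 1560 values of network genes under an alternative, 1470 kept their direction and their side of the threshold, 42 lost a call, 16 gained one and 32 had the other sign, 5 of these for a value called as deposited (MLX and MXD3 levels with DMSO). In NCI-H2228, no filter left 4 network genes and 1052 genes called, against 7 and 1882, and the cause was not tested. Leaving out each library there gave 4 to 7 network genes and 1152 to 1759 genes. The gene count was 1236 without DMSO replicate 1, 1179 without DMSO replicate 2, 1152 without TRI-611 replicate 1 and 1235 without TRI-611 replicate 3, and 4 network genes were called without TRI-611 replicate 2. For SNU2535 minus NCI-H2228, leaving out each library gave 1 to 2 network genes and 1084 to 1887 genes called, against 1 and 1547 with all libraries. Differences in response that gained a call without a library were MXD4 (given in the report), MGA in SNU2535 minus NCI-H3122 without SNU2535 TRI-611 replicate 2 (adjusted p = 0.0334), and, in NCI-H3122 minus NCI-H2228, MNT without NCI-H2228 DMSO replicate 1 (0.0152), MXI1 without NCI-H2228 DMSO replicate 2 (0.0245) and MLX without NCI-H2228 TRI-611 replicate 2 (0.0341). Besides MLX, other settings gave such calls as well. Median-ratio scaling did so for MAX in SNU2535 minus NCI-H3122 (0.19, adjusted p = 0.0365) and in NCI-H3122 minus NCI-H2228 (-0.22, 0.0477). A pseudocount of 5 did so for MNT in NCI-H3122 minus NCI-H2228 (0.0286). The fit of all 18 libraries did so for MGA in SNU2535 minus NCI-H3122 (0.0428). With the replicate block, the calls of network genes numbered 6 in SNU2535, 8 in NCI-H3122 and 6 in NCI-H2228. Of all tested genes, 4057, 4294 and 1724 were called with the block in these lines, against 4672, 5214 and 1882 without it. The block changed no call of a network gene other than MYCL in SNU2535 and MNT in NCI-H2228.

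Values with the other sign, mostly near 0, were these, and the cause was not tested. Median-ratio scaling gave 0.054 for the response of MXD1 in SNU2535 minus NCI-H2228, -0.030 for that of MGA in NCI-H3122 minus NCI-H2228, and, for DMSO levels, -0.0095 for MLX and -0.15 for MNT in SNU2535 minus NCI-H3122, 0.059 for MLX in SNU2535 minus NCI-H2228 and 0.068 for MLX in NCI-H3122 minus NCI-H2228. Quantile normalization gave 0.078 for the same response of MXD1. For DMSO levels it gave -0.031 for MLX and -0.22 for MNT (adjusted p = 0.0379) in SNU2535 minus NCI-H3122, 0.020 for MLX in SNU2535 minus NCI-H2228, and 0.051 for MLX and 0.19 for MXD3 in NCI-H3122 minus NCI-H2228. A pseudocount of 5 gave 0.045 for that response of MXD1. Without mitochondrially encoded genes, MAX in NCI-H3122 was 0.0037, MNT -0.00077 and MXI1 -0.00058 in DMSO levels. Leaving out each library, the range was -0.048 to 0.0099 for MAX in NCI-H3122, -0.0075 to 0.058 for MLX in SNU2535 minus NCI-H3122, -0.090 to 0.063 for MXD1 and -0.19 to 0.0057 for MXI1 in SNU2535 minus NCI-H2228, -0.025 to 0.067 for MGA in NCI-H3122 minus NCI-H2228, and, for DMSO levels, -0.00080 to 0.10 for MNT in SNU2535 minus NCI-H3122 and -0.10 to 0.090 for MXI1 in SNU2535 minus NCI-H2228.

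Among all called genes, the share called higher was 37.1% in SNU2535 (50.9% under quantile normalization), 60.6% in NCI-H3122 (44.2% under median-ratio scaling) and 42.8% in NCI-H2228 (56.1% without mitochondrially encoded genes). For differences in response it was 18.5% in SNU2535 minus NCI-H3122 (56.0% under median-ratio scaling), 25.9% in SNU2535 minus NCI-H2228 (44.5%) and 62.7% in NCI-H3122 minus NCI-H2228 (44.1%). Among the lists, no filter left 3 co-activators and 3 co-repressors lower in SNU2535 (against 6 each) and 1 gene of MYC locus and mRNA control (against 4), and in NCI-H3122 2 co-repressors (against 5). Median-ratio scaling left 1 co-activator higher in NCI-H3122 (against 4). Without read totals, counting error could not be set beside low values such as MYCL.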
